A study of Mus musculus with 18 samples.

Results

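Described here are 32 T cell genes, out of 41605 genes in the files, in mouse skin treated with a household laundry detergent or with phosphate-buffered saline. They were listed by symbol and cover chains of the T cell receptor and CD3, co-receptors and surface proteins, proximal signalling proteins, co-stimulatory receptors, interleukin 2 receptor chains with Foxp3, and lineage or effector genes. All 32 were found by GRCm38 gene ID, and 30 passed the filter on low counts; Cd8a and Tbx21 did not. Skin RNA of C57BL/6 mice aged 8 to 12 weeks was sequenced in bulk in 18 libraries, of which 6 came from skin treated with Detergent A, 6 from skin treated with Detergent B and 6 from skin treated with PBS, the saline control. The comparisons ask how each detergent differed from PBS and how Detergent B differed from Detergent A. No label gives a dose, a duration or a body site. Nor is it stated whether the libraries of a group came from different mice, so a p-value here measures the spread between these samples, which may be technical.

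T cells recognise antigen through a receptor built of an alpha and a beta chain, or of a gamma and a delta chain, and the receptor signals through the CD3 subunits and the zeta chain encoded by Cd247. Mouse epidermis is known for dendritic epidermal T cells, a resident gamma-delta population whose nearly uniform receptor uses the variable segments Tcrg-V5 and Trdv4. Alpha-beta T cells of the skin, regulatory T cells among them, lie mainly in the dermis and around hair follicles. In bulk skin, fewer cells of a type and less RNA per cell cannot be told apart.

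Libraries held 17312623 to 29599018 counts, and levels are given as CPM, counts scaled to library sizes that were adjusted by the trimmed mean of M-values (TMM). Epidermal keratins marked the tissue as skin, with Krt10 at 9530 ± 3803 CPM in Detergent A skin, 12770 ± 3258 CPM in Detergent B skin and 6801 ± 2252 CPM in PBS skin (SD, n = 6 each). PBS replicate 6 stood apart from the other PBS libraries and had the highest level of all 18 libraries for 17 of the 32 T cell genes. Its hair keratin score, the mean log2 CPM of hair shaft keratins relative to the PBS mean, was -2.48, whereas the other PBS libraries lay between -0.44 and 1.84. That score ran from -4.51 to 0.46 in Detergent A skin and from -4.22 to -0.29 in Detergent B skin. The summed level of 4 natural killer cell markers, Ncr1, Klrb1c, Eomes and Klrd1, was 1.27 to 2.88 CPM in Detergent A skin, 1.98 to 3.07 CPM in Detergent B skin, and 1.30 to 2.65 CPM in 5 PBS libraries against 8.33 CPM in PBS replicate 6. Outside PBS replicate 6 most of this sum was Klrd1, which averaged 1.84 CPM in Detergent A skin and 2.09 CPM in Detergent B skin. In PBS replicate 6 Ncr1 had 1.23 CPM and Klrb1c 2.18 CPM, where the other PBS libraries reached at most 0.288 and 0.411 CPM. The counts and medians of the T cell genes, and the log2 fold changes of several of them, are also given without PBS replicate 6. What part hair content or natural killer cells have in them was not tested.

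None of the 30 T cell genes tested passed the threshold in any comparison (edgeR quasi-likelihood test, Benjamini-Hochberg adjusted p under 0.05 over 16836 genes). For Detergent A against PBS, 0 of 30 were called, beside 0.19% of all genes tested, and 7 of 30 had an unadjusted p under 0.05, beside 18.8% of all genes. For Detergent B against PBS, 0 of 30 were called, beside 3.05% of all genes, and 2 of 30 had an unadjusted p under 0.05, beside 23.3%. For Detergent B against Detergent A, 0 of 30 were called, beside 0% of all genes, and 0 of 30 had an unadjusted p under 0.05, beside 3.27%. By DESeq2, 1 T cell gene was called for Detergent A against PBS (Cd2), beside 797 of all genes. For Detergent B against PBS it called 1 (Cd5), beside 1391 of all genes. The CPM ranges of the groups overlapped for each of the 30 genes in all 3 comparisons; among all genes, 1.36% did not overlap for Detergent A against PBS, 2.85% for Detergent B against PBS and 0.0594% for Detergent B against Detergent A.

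Most T cell genes had lower levels in Detergent A skin than in PBS skin, though none passed the test, and how far depended on PBS replicate 6. For Detergent A against PBS, 26 of 30 log2 fold changes were below 0, beside 51.6% of all genes, and their median was -0.32, beside -0.01 for all genes. Without PBS replicate 6, 19 of 30 were below 0 and the median was -0.20. For Detergent B against PBS, 19 of 30 were below 0, beside 51.3% of all genes, with a median of -0.07 beside -0.01. Here the median turned to 0.14 without PBS replicate 6, with 13 of 30 below 0, and to 0.02 without Detergent B replicate 1. Both comparisons use the same PBS libraries. Detergent B against Detergent A, which does not use them, had 6 of 30 below 0, beside 50.1% of all genes, and a median of 0.18, which ran from 0.10 without Detergent B replicate 4 to 0.27 without Detergent A replicate 4. Markers of some other cell types, though not of all, also lay below PBS in Detergent A skin. Below 0 were 15 of 18 macrophage and dendritic cell genes (median log2 fold change -0.34) and 8 of 9 mast cell genes (-0.40). So were all 10 pan-leukocyte genes (-0.25) and all 9 fibroblast genes (-0.19). Above 0 were all 5 neutrophil genes (1.03) and 9 of 11 keratinocyte genes (0.385). The same held for 5 of 8 endothelial and neural genes (0.099) and 5 of 7 skeletal muscle genes (0.02). Values of these other cell types are given with PBS replicate 6 only, so how far they depend on it is not shown. It had the highest pan-leukocyte sum of the PBS libraries (409 CPM, PBS median 277.6 CPM). Its fibroblast sum was their lowest (5835 CPM, PBS median 7660 CPM). What part these cells have in the T cell gene values was not tested.

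**Figure D1:**
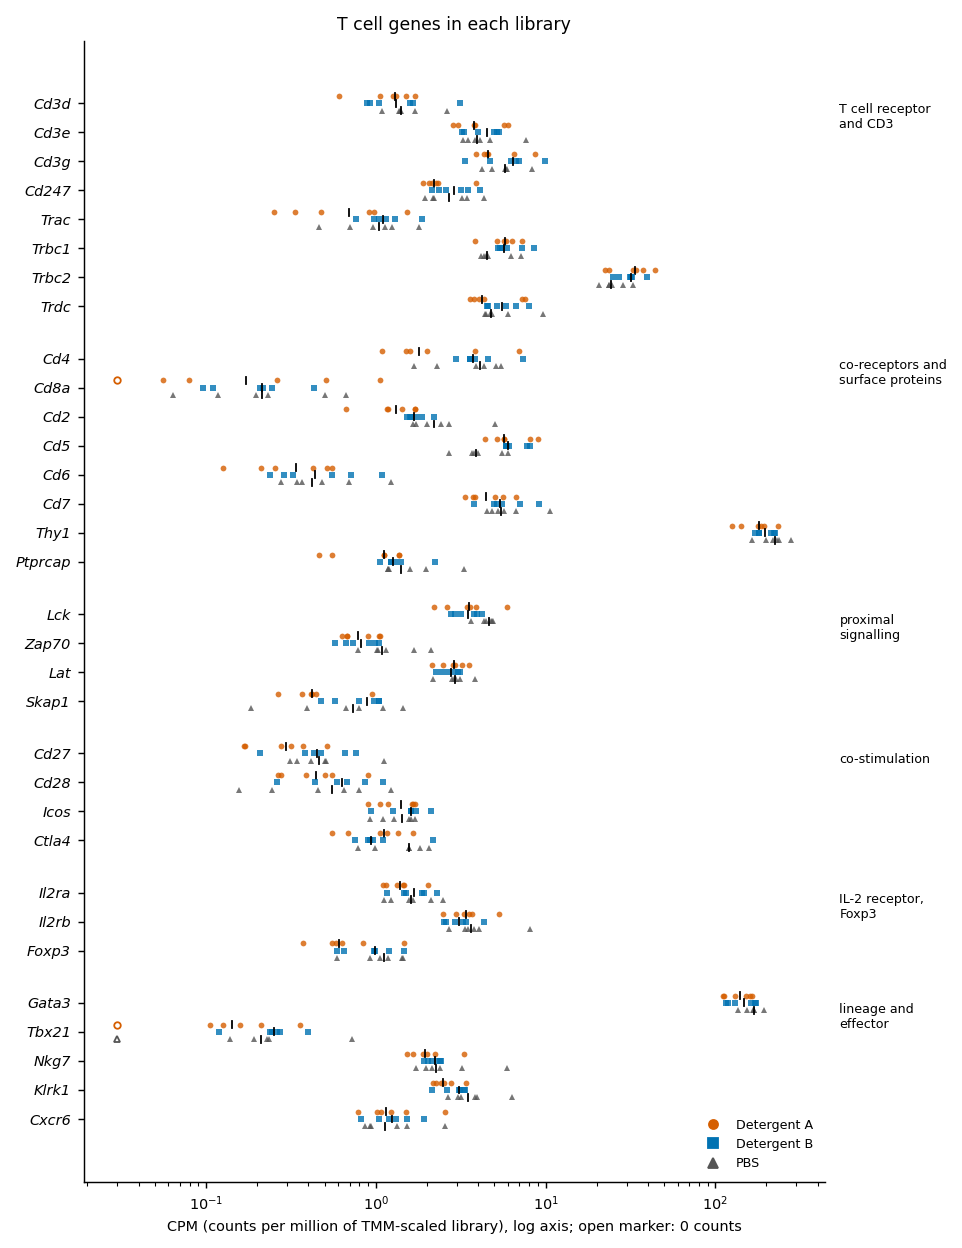
Level of each of the 32 T cell genes in each of the 18 libraries, in CPM on a log axis; black ticks mark group medians and open markers mark libraries with 0 counts. The 3 groups overlap for each gene.

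The genes spanned a wide range of levels. Per kilobase of exon and averaged over the 18 libraries, Thy1 stood at 66.4 CPM, Trbc2 at 43.0 CPM, Gata3 at 37.5 CPM, Trbc1 at 7.64 CPM and Cd7 at 4.98 CPM, while Cd3e stood at 1.07 CPM and Cd6 at 0.0605 CPM. Thy1 is a surface glycoprotein that fibroblasts and nerves also make, and Gata3 is a transcription factor of T helper 2 cells, innate lymphoid cells, epidermis and hair follicle. Without these 2 genes the median log2 fold changes were -0.32 for Detergent A against PBS, -0.05 for Detergent B against PBS and 0.20 for Detergent B against Detergent A. Most of the others rested on few counts: Cd3e, for example, had 54 to 144 counts in Detergent A libraries, 62 to 138 in Detergent B libraries and 66 to 138 in PBS libraries.

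**Figure D2:**
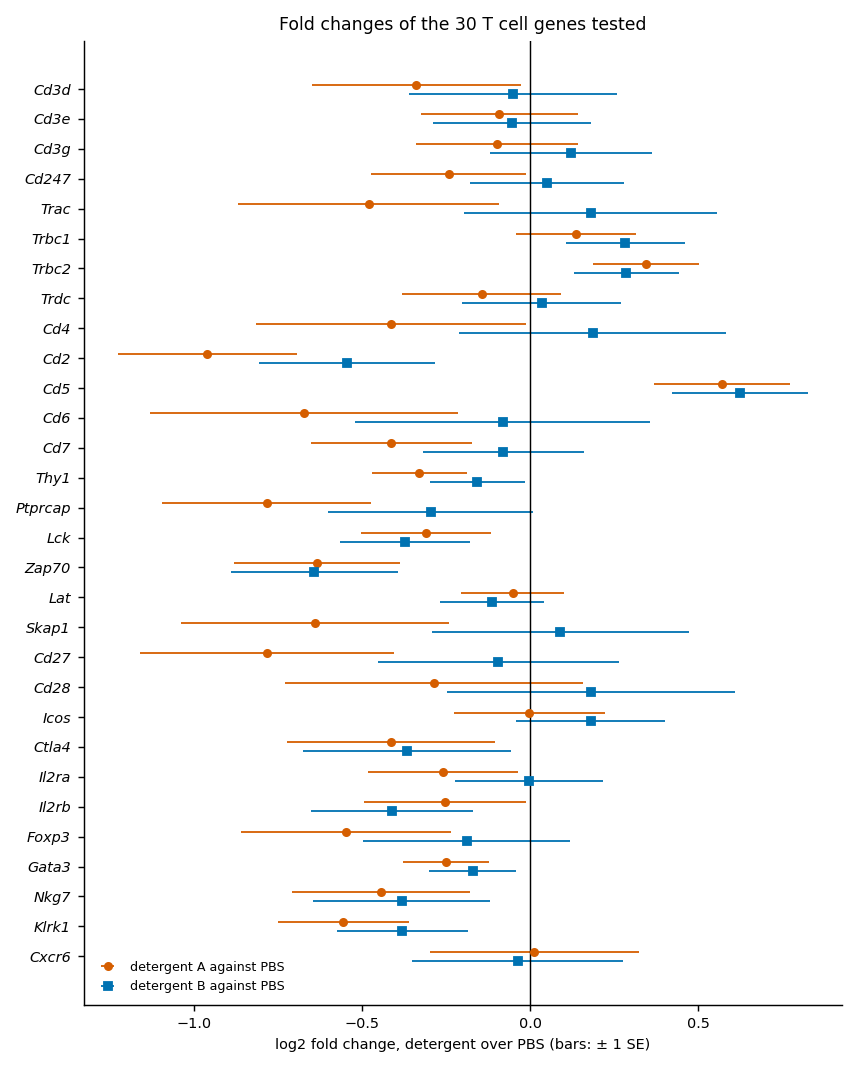
Log2 fold change of each of the 30 T cell genes tested, for Detergent A over PBS and Detergent B over PBS, with bars of 1 standard error; both use the same 6 PBS libraries. Cd2 lies lowest for Detergent A (-0.96), and Cd5 lies highest for both detergents (0.57 for Detergent A and 0.62 for Detergent B).

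Trbc1 and Trbc2 encode the alternative constant regions of the receptor beta chain, at chr6:41538218-41539881 and chr6:41546730-41548352 on the plus strand of GRCm38. Of 512 aligned coding bases, 488 are identical (95.3%), and the first 259 do not differ. Reads from the shared bases match both genes, so how the counts were split between them is uncertain. Coding bases 361 to 512 tell the genes apart and are shown 5′ to 3′ from the GENCODE M21 models, with capitals at the bases that differ.
Trbc1: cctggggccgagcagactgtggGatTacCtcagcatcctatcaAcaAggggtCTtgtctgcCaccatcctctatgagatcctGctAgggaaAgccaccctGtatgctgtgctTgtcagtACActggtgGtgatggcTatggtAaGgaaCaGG
Trbc2: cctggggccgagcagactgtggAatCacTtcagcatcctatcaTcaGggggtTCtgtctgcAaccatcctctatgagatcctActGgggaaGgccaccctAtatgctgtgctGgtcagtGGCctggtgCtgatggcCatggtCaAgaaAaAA

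Trbc2 was the highest of the receptor chain genes per kilobase. Its lowest, median and highest levels were 22.4, 33.5 and 44.0 CPM in Detergent A skin, 24.8, 31.7 and 39.6 CPM in Detergent B skin, and 20.5, 24.2 and 32.5 CPM in PBS skin. Of the libraries, 4 of 6 with Detergent A and 5 of 6 with Detergent B lay above the PBS mean of log2 CPM, within overlapping ranges. The log2 fold change was 0.34 ± 0.16 (SE) for Detergent A against PBS (edgeR, adjusted p = 0.246) and 0.29 ± 0.16 for Detergent B against PBS (edgeR, adjusted p = 0.276). With the hair keratin score as a covariate these became 0.07 and 0.01. Trbc1 had 3.83, 5.78 and 7.22 CPM in Detergent A skin, 5.21, 5.71 and 8.49 CPM in Detergent B skin, and 4.18, 4.53 and 7.21 CPM in PBS skin as lowest, median and highest. All 6 Detergent B libraries lay above the PBS mean of log2 CPM, although the PBS range reached over most of theirs. Its log2 fold change was 0.14 ± 0.18 for Detergent A and 0.28 ± 0.18 for Detergent B against PBS (edgeR, adjusted p = 0.711 and 0.339). Without PBS replicate 6 these became 0.25 and 0.40, and with the hair keratin score as a covariate -0.12 and 0.02, so the sign for Detergent A turned.

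Trac, the constant region of the alpha chain at chr14:54220521-54224206 (plus strand), was lower per kilobase than either beta gene, at 1.06 CPM. Its lowest, median and highest levels were 0.250, 0.693 and 1.54 CPM in Detergent A skin, 0.759, 1.10 and 1.87 CPM in Detergent B skin, and 0.463, 1.05 and 1.79 CPM in PBS skin. Detergent A replicates 1 and 4 lay below every PBS library, and the other Detergent A libraries lay within the PBS range. This gave log2 fold changes of -0.48 ± 0.39 for Detergent A against PBS (95% interval -1.31 to 0.35) and 0.18 ± 0.38 for Detergent B against PBS (95% interval -0.62 to 0.98). Single libraries moved these values: for Detergent A they ran from -0.80 (without Detergent A replicate 3) to -0.28 (without PBS replicate 6), and for Detergent B from 0.00 (without Detergent B replicate 5) to 0.38 (without PBS replicate 6). All 6 Detergent B libraries lay above the Detergent A mean of log2 CPM, with a log2 fold change of 0.66 ± 0.39 (edgeR, adjusted p = 0.989).

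Trdc, the constant region of the delta chain at chr14:54142851-54148868 (plus strand), marks gamma-delta T cells. Its lowest, median and highest levels were 3.59, 4.20 and 7.57 CPM in Detergent A skin, 4.53, 5.50 and 7.94 CPM in Detergent B skin, and 4.40, 4.77 and 9.61 CPM in PBS skin. PBS replicate 6 held the highest value, and the other PBS libraries lay within the range of both detergents or just beside it. Log2 fold changes were -0.14 ± 0.24 for Detergent A against PBS (95% interval -0.65 to 0.36) and 0.03 ± 0.24 for Detergent B against PBS (95% interval -0.47 to 0.54). Without PBS replicate 6 these became 0.07 and 0.25, so the sign for Detergent A depends on that library.

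The remaining genes of the gamma-delta receptor were read beside Trdc. The first 300 coding bases of Tcrg-V5 (coding span chr13:19192278-19192725) and Trdv4 (coding span chr14:54075004-54075515), both on the plus strand of GRCm38, are shown 5′ to 3′ from GENCODE M21, since these segments identify the dendritic epidermal receptor; capitals mark the start codon.
Tcrg-V5: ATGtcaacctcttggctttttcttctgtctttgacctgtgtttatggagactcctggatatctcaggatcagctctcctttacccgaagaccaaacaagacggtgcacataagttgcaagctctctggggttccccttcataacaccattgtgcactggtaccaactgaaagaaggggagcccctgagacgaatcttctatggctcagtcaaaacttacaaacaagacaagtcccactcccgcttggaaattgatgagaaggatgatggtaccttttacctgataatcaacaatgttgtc
Trdv4: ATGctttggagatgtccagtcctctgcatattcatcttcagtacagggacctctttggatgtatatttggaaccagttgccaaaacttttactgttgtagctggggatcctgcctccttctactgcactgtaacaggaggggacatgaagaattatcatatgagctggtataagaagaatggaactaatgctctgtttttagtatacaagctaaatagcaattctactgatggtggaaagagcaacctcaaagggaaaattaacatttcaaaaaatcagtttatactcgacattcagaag

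Over the 18 libraries Tcrg-V5 collected 369 counts and Trdv4 440, whereas Tcrg-V1, Tcrg-V4, Tcrg-V6 and Tcrg-V7 collected 23, 19, 15 and 1. Tcrg-V5 had 0.591, 0.813 and 1.04 CPM as lowest, median and highest in Detergent A skin, 0.468, 0.847 and 1.70 CPM in Detergent B skin, and 0.648, 0.884 and 1.73 CPM in PBS skin. The medians lay close together and Detergent A had the narrowest range. Trdv4 had 0.685, 0.931 and 1.71 CPM in Detergent A skin, 0.613, 0.929 and 1.31 CPM in Detergent B skin, and 0.694, 1.35 and 1.84 CPM in PBS skin. For Tcrg-V5 the log2 fold change was -0.43 ± 0.31 for Detergent A and -0.18 ± 0.31 for Detergent B against PBS, and for Trdv4 it was -0.32 ± 0.28 and -0.46 ± 0.28 (edgeR, adjusted p from 0.324 to 0.763). The constant regions Tcrg-C1, Tcrg-C2 and Tcrg-C4 had log2 fold changes of -0.21, -0.06 and -0.21 for Detergent A and -0.02, 0.03 and 0.17 for Detergent B against PBS, none past the test. Coding bases of Tcrg-C1 and Tcrg-C2 are 97.4% identical, so the counts of this pair are uncertain too.

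**Figure D3:**
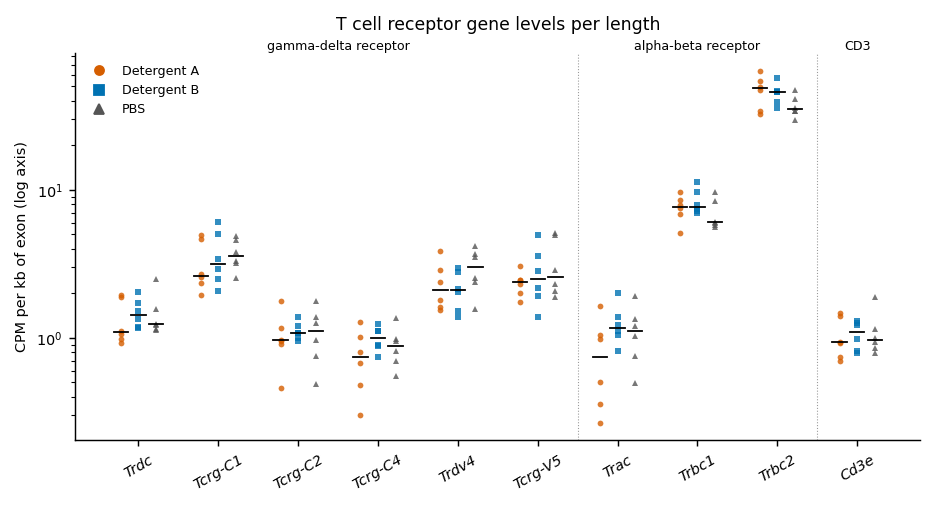
Levels of gamma-delta receptor genes, alpha-beta receptor genes and Cd3e in CPM per kilobase of exon on a log axis, with 1 point per library and a mark at each group median. The 3 groups overlap for each gene, and Trbc2 stands highest at 43.0 CPM per kb over all libraries.

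The balance of gamma-delta and alpha-beta T cell genes was read as a log2 ratio of counts within each library, which does not depend on library size. It was not adjusted for exon length, 3865 bases for Trdc and 935 for Trac, so its size does not compare their levels. Per kilobase of exon, Trdc averaged 1.43 CPM and Trac 1.06 CPM over the 18 libraries. For Trdc over Trac the lowest, median and highest ratios were 1.39, 2.98 and 4.75 in Detergent A skin, 1.29, 2.35 and 2.92 in Detergent B skin, and 1.94, 2.51 and 3.19 in PBS skin. Detergent A skin spread most widely, on 96 Trac counts in its 6 libraries together, and reached both above and below the PBS range. The difference in means was 0.46 for Detergent A against PBS, -0.18 for Detergent B against PBS and -0.63 for Detergent B against Detergent A (exact two-sided permutation tests, adjusted p = 0.761 each, over 12 tests of 4 ratios). Leaving out Detergent A replicate 4 gave 0.09 for Detergent A against PBS and -0.27 for Detergent B against Detergent A, and leaving out Detergent A replicate 3 gave 0.76 and -0.94. The smallest p that 6 libraries against 6 allow is 0.002165. Trac alone stood for the alpha-beta genes in this ratio. For Detergent A against PBS its log2 fold change was -0.48 and that of Trdc -0.14, while Trbc1 and Trbc2 had 0.14 and 0.34. Ratios of Trdc to Trbc1 or Trbc2 were not tested.

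Trdc over Cd3e was tighter, at 0.27 ± 0.22 in Detergent A skin, 0.42 ± 0.14 in Detergent B skin and 0.33 ± 0.13 in PBS skin (mean log2 ratio and SD, n = 6 each). The differences in means were -0.07 for Detergent A against PBS, 0.09 for Detergent B against PBS and 0.15 for Detergent B against Detergent A (exact permutation, adjusted p = 0.761 each), and PBS replicate 6 did not stand out in this ratio. Foxp3 over Cd3e, the regulatory T cell factor over a CD3 chain of all T cells, had lowest, median and highest values of -3.32, -2.28 and -1.95 in Detergent A skin, -3.12, -2.17 and -1.13 in Detergent B skin, and -2.83, -1.80 and -1.41 in PBS skin. It was lower than the PBS mean in 5 of 6 Detergent A libraries, with a difference of -0.53 (exact permutation, adjusted p = 0.761). Cd8a over Cd4 rested on 29 to 40 Cd8a counts per group and was -3.72 ± 2.08 in Detergent A skin, -4.24 ± 0.98 in Detergent B skin and -3.83 ± 1.56 in PBS skin; its difference changed sign in each comparison depending on which library was left out.

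The CD3 chains carry the receptor signal into the cell. Cd3e, at chr9:44998740-45009627 (minus strand), had 2.85, 3.80 and 6.01 CPM as lowest, median and highest in Detergent A skin, 3.23, 4.49 and 5.29 CPM in Detergent B skin, and 3.24, 3.96 and 7.71 CPM in PBS skin. PBS replicate 6 was the highest of all 18 libraries, and the other PBS libraries reached 4.71 CPM, below the highest libraries of either detergent. Cd3e had a log2 fold change of -0.09 ± 0.23 for Detergent A and -0.05 ± 0.23 for Detergent B against PBS, and 0.12 and 0.16 without PBS replicate 6. Cd3g averaged 5.41 ± 1.82 CPM in Detergent A skin, 6.30 ± 2.23 CPM in Detergent B skin and 5.81 ± 1.38 CPM in PBS skin (SD, n = 6 each). Cd3d averaged 1.25 ± 0.38 CPM in Detergent A skin, 1.53 ± 0.85 CPM in Detergent B skin and 1.60 ± 0.54 CPM in PBS skin. Cd247 averaged 2.43 ± 0.73 CPM in Detergent A skin, 2.98 ± 0.75 CPM in Detergent B skin and 2.89 ± 0.94 CPM in PBS skin; 56.4% of its exon bases are shared with Pou2f1 on the other strand, and the strand setting of the counting is not given in the sources used here.

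Cd3g and Cd3d are divergent neighbours whose RefSeq starts lie 1354 bases apart, with Cd3e next to them. The 250 bases before each start are shown from RefSeq (GRCm38.p6), 5′ to 3′ on the strand of the gene. They span chr9:44981536-44981785 (plus strand) for Cd3d, chr9:45009612-45009861 (minus strand) for Cd3e and chr9:44980432-44980681 (minus strand) for Cd3g. What part these bases have in how the genes varied between libraries was not tested. Capitals mark exact matches to 3 motifs searched on both strands, ETS (AGGAAG or CTTCCT), RUNX (TGTGGT or ACCACA) and an E-box (CAGGTG or CACCTG). None of the marked matches overlap.
Cd3d: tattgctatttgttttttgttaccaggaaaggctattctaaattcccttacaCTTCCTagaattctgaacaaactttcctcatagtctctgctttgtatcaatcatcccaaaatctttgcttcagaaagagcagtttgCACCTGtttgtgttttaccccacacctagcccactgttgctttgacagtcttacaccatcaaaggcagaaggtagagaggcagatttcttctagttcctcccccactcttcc
Cd3e: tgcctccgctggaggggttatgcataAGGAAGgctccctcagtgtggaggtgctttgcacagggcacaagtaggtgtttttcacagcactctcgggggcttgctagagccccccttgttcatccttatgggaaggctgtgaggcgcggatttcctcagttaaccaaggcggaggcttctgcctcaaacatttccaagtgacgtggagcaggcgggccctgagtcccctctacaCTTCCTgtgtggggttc
Cd3g: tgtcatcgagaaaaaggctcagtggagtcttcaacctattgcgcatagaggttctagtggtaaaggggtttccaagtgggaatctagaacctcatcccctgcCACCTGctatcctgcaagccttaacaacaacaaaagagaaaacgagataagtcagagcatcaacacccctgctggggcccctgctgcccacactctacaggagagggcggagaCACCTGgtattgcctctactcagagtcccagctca
The Cd3d window held an ETS and an E-box match, the Cd3e window ETS matches, and the Cd3g window E-box matches. RefSeq windows were found for 18 of the 32 T cell genes, 22 windows in all, of which 14 held the ETS letters, 5 the RUNX letters and 9 the E-box letters. Of 32851 promoter windows in the table, 29.5% held the ETS letters, 14.0% the RUNX letters and 17.2% the E-box letters. A match describes the letters only.

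Among surface proteins, Cd2 had the smallest p of the T cell genes for Detergent A. Cd2 encodes an adhesion receptor that binds CD48 in mice and lies at chr3:101275899-101287939 (minus strand). Its levels in replicates 1 to 6 were 0.666, 1.18, 1.43, 1.71, 1.16 and 1.71 CPM in Detergent A skin, 1.72, 1.53, 1.62, 1.86, 1.58 and 2.21 CPM in Detergent B skin, and 1.73, 2.70, 2.01, 1.65, 2.41 and 5.03 CPM in PBS skin. All 6 libraries of each detergent lay below the PBS mean of log2 CPM, and the range of each detergent overlapped the lower end of the PBS range. That mean was raised by PBS replicate 6, at 5.03 CPM, where the other PBS libraries reached at most 2.70 CPM. Cd2 had a log2 fold change of -0.96 ± 0.27 for Detergent A against PBS (95% interval -1.53 to -0.39; edgeR, adjusted p = 0.0842) and -0.55 ± 0.26 for Detergent B against PBS (edgeR, adjusted p = 0.215). For Detergent A it passed by DESeq2 (-0.95, adjusted p = 0.0200) and by edgeR without Detergent A replicate 6 (-1.05, adjusted p = 0.0436). DESeq2 called 797 genes in all for that comparison. Without PBS replicate 6, edgeR gave -0.66 (adjusted p = 0.0734) for Detergent A and -0.25 (adjusted p = 0.441) for Detergent B.

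Cd5, a scavenger receptor family protein that restrains receptor signalling, lies at chr19:10717116-10739002 (minus strand). Its levels in replicates 1 to 6 were 5.72, 4.39, 8.11, 5.17, 9.06 and 5.71 CPM in Detergent A skin, 6.09, 5.83, 5.92, 5.86, 8.10 and 7.74 CPM in Detergent B skin, and 3.81, 3.70, 3.98, 5.54, 2.68 and 5.98 CPM in PBS skin. All 6 libraries of each detergent lay above the PBS mean of log2 CPM, and PBS replicates 4 and 6 reached into the Detergent A range and PBS replicate 6 into that of Detergent B. Cd5 had a log2 fold change of 0.57 ± 0.20 for Detergent A against PBS (edgeR, adjusted p = 0.149) and 0.62 ± 0.20 for Detergent B against PBS (95% interval 0.19 to 1.06; edgeR, adjusted p = 0.0840). For Detergent B it passed by DESeq2 (0.62, adjusted p = 0.0358) and by edgeR without PBS replicate 6 (0.74, adjusted p = 0.0293). These settings called 1391 and 1888 genes in all. With the hair keratin score as a covariate the log2 fold changes were 0.25 for Detergent A and 0.31 for Detergent B (edgeR, adjusted p = 0.663 and 0.627).

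Thy1, at chr9:44043384-44048579 (plus strand), had 125, 182 and 235 CPM as lowest, median and highest in Detergent A skin, 172, 197 and 225 CPM in Detergent B skin, and 163, 225 and 279 CPM in PBS skin. PBS replicate 6 was the lowest PBS library for Thy1, unlike most of the other genes. Thy1 had a log2 fold change of -0.33 ± 0.14 for Detergent A against PBS (edgeR, adjusted p = 0.223) and -0.16 ± 0.14 for Detergent B against PBS. With the hair keratin score as a covariate these were -0.12 and 0.07. Cd7, a surface protein of T and natural killer cells, averaged 4.70 ± 1.29 CPM in Detergent A skin, 5.94 ± 1.86 CPM in Detergent B skin and 6.29 ± 2.28 CPM in PBS skin (SD, n = 6 each), with 10.7 CPM in PBS replicate 6. Cd6, a receptor related to Cd5, averaged 0.347 ± 0.176 CPM in Detergent A skin, 0.534 ± 0.328 CPM in Detergent B skin and 0.565 ± 0.357 CPM in PBS skin.

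The co-receptor Cd4, made by helper T cells and some macrophages and dendritic cells, lies at chr6:124864692-124888221 (minus strand). It had 1.08, 1.80 and 6.94 CPM as lowest, median and highest in Detergent A skin, 2.96, 3.73 and 7.38 CPM in Detergent B skin, and 1.68, 4.12 and 5.47 CPM in PBS skin. Of the Detergent A libraries 4 lay below every Detergent B library, while Detergent A replicate 6 lay near the top of all 18. Cd4 had a log2 fold change of -0.41 ± 0.40 for Detergent A against PBS, 0.19 ± 0.40 for Detergent B against PBS and 0.60 ± 0.40 for Detergent B against Detergent A (edgeR, adjusted p = 0.600, 0.812 and 0.989). Without Detergent A replicate 6 the value was -0.92 for Detergent A against PBS and 1.10 for Detergent B against Detergent A. Without PBS replicate 6 the value for Detergent B against PBS was 0.04, and without Detergent B replicate 5 it was -0.03. With the hair keratin score as a covariate the log2 fold change was 0.05 for Detergent A and 0.86 for Detergent B against PBS. Cd8a, the co-receptor of cytotoxic T cells, was below the filter: it had no count in Detergent A replicate 4, where 3 counts would be 0.125 CPM, and medians of 0.171 CPM in Detergent A skin, 0.213 CPM in Detergent B skin and 0.214 CPM in PBS skin.

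Ptprcap, a protein bound to the CD45 phosphatase, had 0.465, 1.11 and 1.38 CPM as lowest, median and highest in Detergent A skin, 1.07, 1.26 and 2.25 CPM in Detergent B skin, and 1.18, 1.40 and 3.30 CPM in PBS skin. All 6 Detergent A libraries lay below the PBS mean of log2 CPM. Ptprcap had a log2 fold change of -0.78 ± 0.31 for Detergent A against PBS (edgeR, adjusted p = 0.188), -0.51 without PBS replicate 6 and -1.29 with the hair keratin score as a covariate. Of its exon bases, 76.0% are shared with Rps6kb2, which averaged 114 CPM, and 26.8% with Coro1b, which averaged 171 CPM, so its counts are uncertain.

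Proximal signalling proteins pass the signal on from the receptor. Zap70, the kinase that binds phosphorylated CD3 and zeta chains, lies at chr1:36761798-36782818 (plus strand). It had 0.632, 0.788 and 1.05 CPM as lowest, median and highest in Detergent A skin, 0.572, 0.823 and 1.05 CPM in Detergent B skin, and 0.786, 1.09 and 2.10 CPM in PBS skin. All 6 libraries of each detergent lay below the PBS mean of log2 CPM, but the lower PBS libraries lay within both ranges. Zap70 had a log2 fold change of -0.63 ± 0.25 for Detergent A against PBS (edgeR, adjusted p = 0.182) and -0.64 ± 0.25 for Detergent B against PBS (edgeR, adjusted p = 0.133), and -0.55 and -0.56 without PBS replicate 6.

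Lck, the kinase that acts before Zap70, had 2.21, 3.53 and 5.95 CPM as lowest, median and highest in Detergent A skin, 2.76, 3.48 and 4.22 CPM in Detergent B skin, and 3.66, 4.62 and 4.92 CPM in PBS skin. All 6 Detergent B libraries lay below the PBS mean of log2 CPM, with the lowest PBS library inside their range (log2 fold change -0.37 ± 0.19, edgeR, adjusted p = 0.248). Lat, the adaptor that Zap70 phosphorylates, averaged 2.86 ± 0.49 CPM in Detergent A skin, 2.74 ± 0.34 CPM in Detergent B skin and 2.97 ± 0.55 CPM in PBS skin (SD, n = 6 each). Its 95% intervals against PBS, -0.38 to 0.28 for Detergent A and -0.44 to 0.21 for Detergent B, were among the narrowest of the T cell genes. Skap1, an adaptor for integrin activation, averaged 0.478 ± 0.241 CPM in Detergent A skin, 0.818 ± 0.247 CPM in Detergent B skin and 0.766 ± 0.462 CPM in PBS skin, and all 6 Detergent B libraries lay above the Detergent A mean of log2 CPM.

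Co-stimulatory receptors were low. Cd27, a tumour necrosis factor receptor family member, had 0.167, 0.297 and 0.515 CPM as lowest, median and highest in Detergent A skin, 0.208, 0.451 and 0.759 CPM in Detergent B skin, and 0.314, 0.460 and 1.12 CPM in PBS skin. Its log2 fold change was -0.78 ± 0.38 for Detergent A against PBS (edgeR, adjusted p = 0.272) and -0.46 without PBS replicate 6. Ctla4, an inhibitory receptor, averaged 1.08 ± 0.41 CPM in Detergent A skin, 1.14 ± 0.53 CPM in Detergent B skin and 1.47 ± 0.49 CPM in PBS skin (SD, n = 6 each). Icos averaged 1.35 ± 0.35, 1.54 ± 0.40 and 1.37 ± 0.31 CPM in Detergent A, Detergent B and PBS skin, and Cd28, the main co-stimulatory receptor of naive T cells, 0.479 ± 0.234, 0.656 ± 0.301 and 0.590 ± 0.395 CPM. No gene of this kind had an unadjusted p under 0.05 in any comparison.

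Foxp3, the transcription factor of regulatory T cells at chrX:7573644-7595245 (plus strand), had 0.371, 0.608 and 1.47 CPM as lowest, median and highest in Detergent A skin, 0.592, 0.984 and 1.46 CPM in Detergent B skin, and 0.589, 1.12 and 1.44 CPM in PBS skin. Detergent A replicate 6 was the highest of all 18 libraries, and 5 of 6 Detergent A libraries lay below the PBS mean of log2 CPM. Foxp3 had a log2 fold change of -0.55 ± 0.31 for Detergent A against PBS (95% interval -1.21 to 0.12; edgeR, adjusted p = 0.353) and -0.19 ± 0.31 for Detergent B against PBS. Its exons overlap those of Flicr (18.6% of its bases) and Ccdc22 (12.9%), so part of its counts may belong to these genes. Il2ra, the high affinity chain of the interleukin 2 receptor, averaged 1.42 ± 0.33 CPM in Detergent A skin, 1.70 ± 0.41 CPM in Detergent B skin and 1.69 ± 0.53 CPM in PBS skin (SD, n = 6 each). Il2rb, the chain shared with the interleukin 15 receptor, averaged 3.54 ± 0.96 CPM in Detergent A skin, 3.17 ± 0.68 CPM in Detergent B skin and 4.24 ± 1.94 CPM in PBS skin, with 8.10 CPM in PBS replicate 6.

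Of the lineage and effector genes, Klrk1, which encodes the activating receptor NKG2D of natural killer and T cells, had 2.17, 2.47 and 3.42 CPM as lowest, median and highest in Detergent A skin, 2.13, 3.10 and 3.34 CPM in Detergent B skin, and 2.67, 3.50 and 6.37 CPM in PBS skin. All 6 libraries of each detergent lay below the PBS mean of log2 CPM, in overlapping ranges. That mean was raised by PBS replicate 6, at 6.37 CPM, where the other PBS libraries reached at most 3.93 CPM. The log2 fold change was -0.56 ± 0.19 for Detergent A against PBS (edgeR, adjusted p = 0.144) and -0.38 ± 0.19 for Detergent B against PBS (edgeR, adjusted p = 0.241), and -0.36 and -0.18 without PBS replicate 6. Nkg7, a granule protein of cytotoxic cells, averaged 2.10 ± 0.63 CPM in Detergent A skin, 2.20 ± 0.20 CPM in Detergent B skin and 2.89 ± 1.57 CPM in PBS skin (SD, n = 6 each). For Detergent A against PBS its log2 fold change was -0.44 ± 0.26, and -0.11 without PBS replicate 6. Gata3 had 111, 141 and 164 CPM as lowest, median and highest in Detergent A skin, 116, 147 and 175 CPM in Detergent B skin, and 135, 168 and 193 CPM in PBS skin (log2 fold change -0.25 ± 0.13 for Detergent A and -0.17 ± 0.13 for Detergent B against PBS).

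Cxcr6, a chemokine receptor of tissue-resident T cells, averaged 1.36 ± 0.63 CPM in Detergent A skin, 1.31 ± 0.39 CPM in Detergent B skin and 1.36 ± 0.65 CPM in PBS skin (SD, n = 6 each). Tbx21, the T helper 1 transcription factor, was below the filter, with no count in Detergent A replicate 1 and PBS replicate 3, where 3 counts would be 0.166 and 0.147 CPM. Its highest level was 0.726 CPM, in PBS replicate 6.

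T cell genes also differed in how they varied between libraries. With group means removed, log2 CPM was correlated with that of Cd3e over 18 libraries, in 36 relations including 5 gamma-delta receptor genes. Of the other 31 T cell genes, 29 correlated positively, with a median Pearson r of 0.49, and 7 passed an adjusted p of 0.05 by both Pearson and Spearman (permutation within groups): Cd3d, Cd3g, Cd247, Trdc, Cd2, Cd7 and Nkg7. The share of all genes that correlate with Cd3e was not measured. These counts therefore cannot be read as particular to T cell genes. Trdc had the highest r, 0.92 (permutation, adjusted p = 0.00156), with a Spearman rho of 0.77 (permutation, adjusted p = 0.0102). Leaving out PBS replicate 6 and Detergent A replicate 4, the libraries farthest from the median of Cd3e, its r was 0.85, and within groups it was 0.89 in Detergent A skin, 0.91 in Detergent B skin and 0.96 in PBS skin. Cd7 had an r of 0.85 (0.73 without these libraries), Nkg7 0.81 (0.62), Cd247 0.80 (0.65), Cd2 0.76 (0.57), Cd3g 0.72 (0.59) and Cd3d 0.67 (0.54). Il2rb (0.67, and 0.29 without them) and Klrk1 (0.71 and 0.43) passed by Pearson and not by Spearman.

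The alpha-beta chain genes had lower correlations with Cd3e. Pearson r with Cd3e was 0.14 for Trac, 0.49 for Trbc1 and 0.15 for Trbc2, with Spearman rho of 0.13, 0.49 and 0.08 and adjusted p from 0.104 to 0.824 by permutation. Within groups Trbc2 gave -0.24 in Detergent A skin, 0.15 in Detergent B skin and 0.79 in PBS skin. Cd4 (-0.24), Foxp3 (0.00) and Cd5 (0.04) were also near or below 0, and whether any of these differs from the r of Trdc was not tested. Outside the list, Tcrg-C1 (0.76) and Trdv4 (0.74) passed both tests with Cd3e. Genes share library depth and low counts in such correlations.

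**Figure D4:**
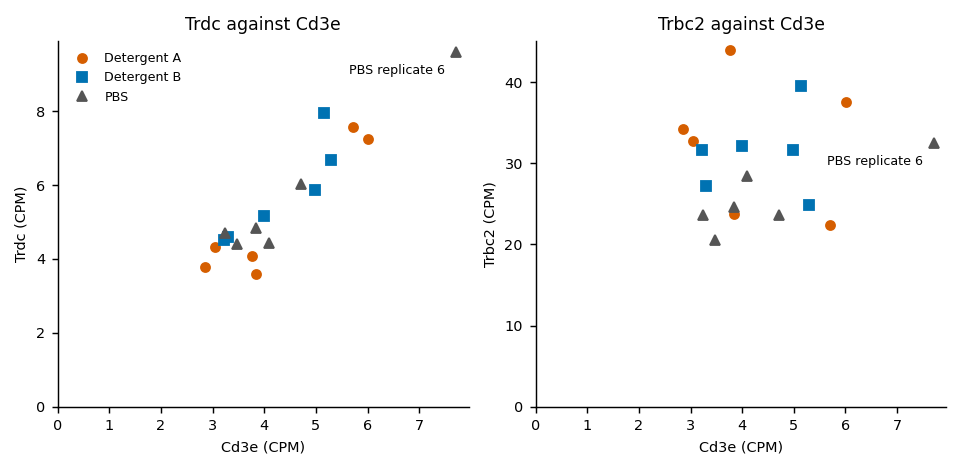
Trdc and Trbc2 against Cd3e in CPM, 1 point per library, for the 3 groups. Trdc follows Cd3e closely (Pearson r = 0.92 with group means removed), and Trbc2 has r = 0.15.

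Correlation with the hair keratin score was measured in the same way in 37 relations, and none passed an adjusted p of 0.05. Trbc2 had a Pearson r of -0.65 (Spearman rho -0.71), Ptprcap -0.65 (rho -0.56), Trbc1 -0.61 (rho -0.56) and Cd5 -0.61 (rho -0.44), with Pearson adjusted p = 0.104 each by permutation. Without Detergent A replicate 2 and PBS replicate 6 these r values were -0.53, -0.45, -0.56 and -0.45. Nkg7 had an r of -0.58 (rho -0.49) with the same Pearson adjusted p, and -0.39 without these libraries. Within Detergent A, Detergent B and PBS skin, r was -0.77, -0.38 and -0.71 for Trbc2 and -0.69, -0.46 and -0.65 for Cd5. Lck (0.58), Thy1 (0.56) and Cd4 (0.52) lay at the other end. Cd3e had an r of -0.18 and Trdc of -0.25. For Cd3e this was 0.01 within Detergent A skin, 0.199 within Detergent B skin and -0.749 within PBS skin. For Trdc it was -0.139, 0.107 and -0.715, so in PBS skin both lay as low as Trbc2 and Cd5. Leaving out Detergent A replicate 2 and PBS replicate 6, r was 0.053 for Cd3e and 0.084 for Trdc.

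**Figure D5:**
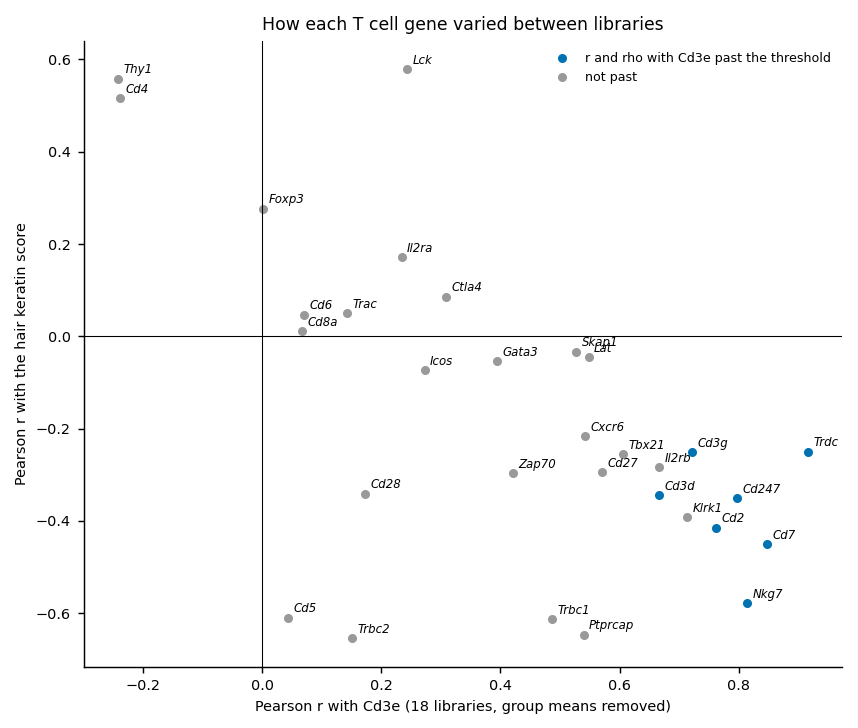
Pearson r of each T cell gene with Cd3e against its r with the hair keratin score, over 18 libraries with group means removed. Trdc, Cd7 and Nkg7 lie at high r with Cd3e, and at -0.25, -0.45 and -0.58 with the hair keratin score. Trbc2 and Cd5 lie near 0 with Cd3e and at -0.65 and -0.61 with the hair keratin score.

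Other genes of T cell biology gave few calls. Of 25 genes tested that act downstream of the receptor, none passed in any comparison, and 7 had an unadjusted p under 0.05 for Detergent A against PBS, beside 18.8% of all genes, and 1 for Detergent B against PBS, beside 23.3%. Itpkb, a kinase of inositol trisphosphate, averaged 126 ± 15 CPM in Detergent A skin, 128 ± 14 CPM in Detergent B skin and 162 ± 28 CPM in PBS skin (edgeR against PBS, log2 fold change -0.36 ± 0.11 with adjusted p = 0.105 for Detergent A, and -0.34 ± 0.11 with adjusted p = 0.0798 for Detergent B). Of 13 gamma-delta and dendritic epidermal T cell genes, 20 ligands and partners of these cells, 21 regulatory and inhibitory genes and 8 effector cytokine and cytotoxic genes, none passed in any comparison. Their median log2 fold changes were -0.21, 0.02, -0.06 and -0.47 for Detergent A against PBS, and -0.02, 0.26, 0.03 and -0.33 for Detergent B against PBS. Unadjusted p was under 0.05 for 0, 0, 4 and 0 of them for Detergent A, beside 18.8% of all genes, and for 1, 5, 7 and 1 for Detergent B, beside 23.3%; 4 of 21 and 5 of 20 lie near these shares.

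Among effector cytokine and cytotoxic genes, Areg, the growth factor amphiregulin, which keratinocytes also make, averaged 8.34 ± 4.41 CPM in Detergent A skin, 5.68 ± 4.40 CPM in Detergent B skin and 8.39 ± 3.49 CPM in PBS skin (SD, n = 6 each). Tnf, which macrophages also make, averaged 2.5 ± 1.63 CPM in Detergent A skin, 2.86 ± 1.42 CPM in Detergent B skin and 3.35 ± 0.812 CPM in PBS skin. The cytokines Ifng, Il17a and Il22, named after their values were seen, had few counts or none. Ifng averaged 0.0894 ± 0.0577 CPM in Detergent A skin, 0.0527 ± 0.0732 CPM in Detergent B skin and 0.0522 ± 0.0542 CPM in PBS skin (SD, n = 6 each), Il17a reached a mean of 0.0182 CPM in Detergent B skin, and Il22 had no count in any library. Gzma and Gzmb, granzymes of cytotoxic cells, reached 4.13 and 3.74 CPM in PBS replicate 6. Elsewhere Gzma was at most 0.580 CPM in Detergent A skin, 0.797 CPM in Detergent B skin and 1.14 CPM in PBS skin. Prf1, of the same list, had 5.81 CPM in PBS replicate 6 and at most 2.93 CPM in the other PBS libraries. The median log2 fold changes of this list against PBS, -0.47 for Detergent A and -0.33 for Detergent B, are given only with that library included.

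Of 21 T cell homing and residency genes, 1 passed, lower in Detergent B skin than in PBS skin, beside 3.05% of all genes. Runx3, a transcription factor of cytotoxic and resident T cells that keratinocytes and other skin cells also use, had 4.84, 5.85 and 8.15 CPM as lowest, median and highest in Detergent A skin, 4.66, 5.76 and 7.26 CPM in Detergent B skin, and 7.10, 9.11 and 10.4 CPM in PBS skin. The log2 fold change was -0.63 ± 0.15 for Detergent B against PBS (edgeR, adjusted p = 0.0310), with all but the highest Detergent B library below every PBS library, and -0.59 ± 0.14 for Detergent A against PBS (edgeR, adjusted p = 0.0616). For Detergent B it passed under 15 of 24 alternatives, a check added after the data were seen, and not with the hair keratin score as a covariate or without Detergent B replicate 2, 4, 5 or 6 or PBS replicate 1, 2, 3 or 5. PBS replicate 6, high for most T cell genes, was the lowest PBS library for Runx3.

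Markers of other cell types were read for the same comparisons. None of 10 natural killer and innate lymphoid, 18 macrophage and dendritic cell, 9 mast cell, 5 neutrophil, 10 pan-leukocyte, 9 fibroblast, 8 endothelial and neural, 7 skeletal muscle, 13 hair shaft keratin and 10 inner root sheath genes passed in any comparison. The pan-leukocyte genes, such as Laptm5 and Coro1a, had a median log2 fold change of -0.25 for Detergent A against PBS, 0.01 for Detergent B against PBS and 0.28 for Detergent B against Detergent A. Hair shaft keratins had medians of -1.91 for Detergent A and -2.62 for Detergent B against PBS. Of 11 keratinocyte genes 1 passed for Detergent B against PBS, beside 3.05% of all genes: Krt1, a keratin of differentiating epidermis, averaged 9070 ± 4075 CPM in Detergent A skin, 12570 ± 3337 CPM in Detergent B skin and 4523 ± 1376 CPM in PBS skin, with a log2 fold change of 1.47 ± 0.28 for Detergent B against PBS (edgeR, adjusted p = 0.0159). The call was lost with the hair keratin score as a covariate and without PBS replicate 2 or 3.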

How the data were processed

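Whole-number counts of reads per gene were deposited by the authors for each library; they were not normalised, judging from totals that differ. STAR, featureCounts and the GRCm38.p5 build are named per the submitters' processing notes; versions, annotation release, handling of reads that match several genes and strand setting were not given in the sources consulted. Per the labels' protocols, skin was kept in RNAlater and homogenised before column purification of total RNA.

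Gene IDs were matched to GENCODE M21 (41519 of 41605; 86 were not). Counts of all 18 libraries were fitted with edgeR 4.0.16 in R 4.3.3 (TMM, filterByExpr, robust quasi-likelihood, 15 residual degrees of freedom), with p-values adjusted over the 16836 genes that passed the filter, which held at least 99.89% of counts. Groups came from the treatment labels. Ratios used 0.5 added counts and exact permutation over 924 regroupings; correlations used 100000 permutations. The model was tested on simulated counts, with changes set only in genes above a low mean CPM and the same dispersion for all genes. That simulation does not cover the T cell genes with the fewest counts, nor a library that stands apart. Members and lists were chosen with earlier results of these data known. All 32 members are described; from each other list, up to 3 genes past the threshold are named or, with none, some of those with the highest CPM, and Ifng, Il17a, Il22, Gzma and Gzmb were named after their values were seen. Alternatives were size factors, DESeq2 1.42.0, no filter, 12-library fits, a replicate block, a hair keratin covariate and each library left out. No 2 libraries held near-identical counts. A marker list is not reported here. Floors for 0 counts cover counting error only.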

Additional observations from a re-analysis of the deposited data

Results flagged for a closer look

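In each group of 6 libraries, the gap between the highest or lowest library and its nearest neighbour was compared with the whole range. Dixon's 95% critical value was passed in 18 of 133 groups checked. For independent groups with normally distributed values, chance would give about 1 in 20, or 6.7. The genes share libraries and many have low counts, so 18 and 6.7 cannot be compared directly. PBS replicate 6 was the high library in 10 of these, with 7.71 CPM of Cd3e, 9.61 CPM of Trdc, 5.03 CPM of Cd2, 10.7 CPM of Cd7, 3.30 CPM of Ptprcap, 1.12 CPM of Cd27, 8.10 CPM of Il2rb, 0.726 CPM of Tbx21, 5.92 CPM of Nkg7 and 6.37 CPM of Klrk1. Its natural killer cell markers summed to 8.33 CPM, and their part in these values was not tested.

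Among Detergent A libraries, replicate 4 stood apart for Cd247 with 3.88 CPM, and replicate 6 for Skap1 with 0.952 CPM and for Tcrg-V7 with 0.0396 CPM, which is the 1 count of that gene in the series. Among Detergent B libraries, replicate 4 stood apart for Cd3d with 3.12 CPM and Ptprcap with 2.25 CPM, replicate 5 for Cd4 with 7.38 CPM and Tcrg-V6 with 0.240 CPM, and replicate 1 for Ctla4 with 2.18 CPM.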

How the results depend on the processing

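No T cell gene was called for Detergent A or Detergent B against PBS with other size factors, no filter on low counts, 12-library fits, the replicate block or the hair keratin covariate. DESeq2 called 1 T cell gene for Detergent A (Cd2) and 1 for Detergent B (Cd5) against PBS; leaving out single libraries gave 0 to 1 for each (Cd2 without Detergent A replicate 6, Cd5 without PBS replicate 6) and 0 to 0 for Detergent B against Detergent A. Over all genes, Detergent A against PBS gave 797 calls by DESeq2, 0 with the replicate block and 0 with the hair keratin covariate, against 32 by edgeR. Detergent B against PBS gave 1391 by DESeq2, 251 without the filter and 0 with the hair keratin covariate, against 514. Leaving out single libraries gave 0 to 888 calls for Detergent A (888 without PBS replicate 6) and 28 (without PBS replicate 3) to 1888 (without PBS replicate 6) for Detergent B, and 0 to 0 for Detergent B against Detergent A. The cause was not tested.

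Without PBS replicate 6, 7 of 30 uncalled log2 fold changes changed sign for Detergent A and 6 of 30 for Detergent B against PBS; with the hair keratin covariate 3 and 7 did. Leaving out single libraries moved the differences in log2 ratio across 0 for Trdc over Cd3e (Detergent A against PBS, -0.1114 to 0.0082), Trdc over Trac (Detergent B against PBS, -0.3012 to 0.0246), Foxp3 over Cd3e (Detergent B against PBS, -0.3579 to 0.0389) and Cd8a over Cd4 (Detergent A against PBS, -0.5185 to 0.6189; Detergent B against PBS, -0.8655 to 0.0972; Detergent B against Detergent A, -1.0048 to 0.1073). No ratio passed under any alternative.

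Replicate numbers were not treated as pairs. Same-numbered libraries deviated together, with r over 0.1, in 2 of 6 pairs for Detergent A against PBS and in 3 of 6 for each other comparison. This cannot settle whether the samples were paired, since other differences between libraries enter the same r. With the replicate block 0 T cell genes were called, and adjusted p for the ratios ran from 0.75 to 0.906 by exact sign flips. For Detergent B against PBS, Runx3 ran from -0.71 to -0.33 over 24 alternatives, a check added after the data were seen (adjusted p 0.00180 to 0.317) and was lost with the hair keratin covariate and without Detergent B replicate 2, 4, 5 or 6 or PBS replicate 1, 2, 3 or 5. Krt1 ran from 1.01 to 1.58 (adjusted p 2.584e-05 to 0.225) and was lost with the hair keratin covariate and without PBS replicate 2 or 3. Low counts limit most the 6 T cell genes with the fewest, Tbx21, Cd8a, Cd27, Cd6, Cd28 and Skap1, which had 88 to 269 counts over the 18 libraries.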
